A study of Mus musculus with 48 samples.

Results

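Mitochondrial beta-oxidation shortens fatty acids in the mitochondrial matrix by repeated cycles of oxidation, hydration, oxidation and thiolysis, each releasing acetyl-CoA. Long-chain fatty acids reach the matrix through the carnitine shuttle, and the electrons of each cycle feed the respiratory chain. In liver this pathway supplies energy and the acetyl-CoA for ketone bodies in fasting, and many of its genes are known targets of the fatty acid receptor PPAR alpha. The 10 genes described here encode the carnitine shuttle (Cpt1a, Slc25a20, Cpt2), the acyl-CoA dehydrogenases for very long, long and medium chains (Acadvl, Acadl, Acadm), the trifunctional protein (Hadha, Hadhb) and the auxiliary enzymes for unsaturated chains (Decr1, Eci1). They were taken by gene symbol, and all 10 are listed among the 11275 genes of the frozen (FROZ) table and the 6673 genes of the formalin-fixed paraffin-embedded (FFPE) table.

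Livers came from 24 male B6C3F1 mice, 4 weeks old, given dichloroacetic acid (DCA) in drinking water for 6 days. The 4 groups of 6 mice received 0, 1.0, 2.0 or 3.5 g/L, estimated as 0 (vehicle controls), 198, 313 and 427 mg/kg-d. Every mouse gave 1 FROZ library (mixed lobes) and 1 FFPE library (left lateral and right medial lobes), so the 48 libraries are 24 pairs, but the paired tissues are not the same piece of liver. TempO-Seq ligates pairs of detector oligos on the target RNA and counts the ligated probes by sequencing. It was run on isolated RNA for FROZ and on lysed sections for FFPE. According to the paper both tissues had been stored for decades, and the isolated FROZ RNA had a low RNA integrity number. Values are log2(CPM + 1), where CPM is the read count scaled to the depth of the library. The probes of Acadl and Hadhb are on the study's list of probes attenuated in the assay. Since a probe's level also depends on its design, levels are compared between doses within a gene and a table, not between genes.

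The libraries held 6.69 to 9.84 M counted reads in FROZ and 1.83 to 6.01 M in FFPE, as far as the step of the low values shows. These are the totals behind the CPM values, not all reads sequenced, and the paper reports a lower share of aligned reads in FFPE than in FROZ. Genes without a read numbered 15 to 62 per library in FROZ and 67 to 1595 in FFPE, where the median was highest at 198 mg/kg-d (991 genes). Of the 11 hepatocyte markers, 10 were listed in FROZ, with a summed level of 31055 to 35244 CPM in controls and 26417 to 30109 CPM at 427 mg/kg-d. At that dose 2 of these were called higher and 2 lower, against 22.7 and 7.33% of all genes. In FFPE, 9 were listed, with 40729 to 52742 CPM in controls and 29083 to 32975 CPM at 427 mg/kg-d, and 3 were called lower (0.869% of all genes). Of 10 listed Kupffer cell and other leukocyte markers in FROZ, 5 were called lower at 427 mg/kg-d (7.33% of all genes). The sum of the 10 was 257 to 344 CPM in controls and 170 to 285 CPM at that dose. The sums of the 9 stellate cell and fibroblast markers (360 to 765 against 309 to 529 CPM), the 9 endothelial markers (249.7 to 288 against 226 to 257 CPM) and the 3 listed cholangiocyte markers (32.9 to 45.0 against 29.9 to 46.9 CPM) overlapped between these groups, and none of 5 adipocyte markers was listed. In FFPE the sum of 5 listed leukocyte markers did not overlap, with 275 to 503 CPM in controls and 161 to 248 CPM at 427 mg/kg-d, although none of the 5 was called. Of single genes in FFPE, 1.54% had all 6 mice at 427 mg/kg-d below all controls. The 8 stellate cell and fibroblast markers listed there summed to 568 to 930 CPM in controls, 721 to 2811 CPM at 198 mg/kg-d and 383 to 1090 CPM at 427 mg/kg-d. The FFPE sums of 6 endothelial markers (467 to 776 against 415 to 501 CPM at 427 mg/kg-d) and 2 cholangiocyte markers (12.3 to 62.6 against 7.03 to 47.0 CPM) overlapped. The part of these shifts in the results below was not tested, and in bulk liver fewer cells of a type and less RNA per cell cannot be told apart.

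In FROZ liver 9 of the 10 genes rose at 313 and at 427 mg/kg-d, and Cpt1a did not pass the test at any dose. A call here is a false discovery rate (FDR) under 0.05 by limma with Benjamini-Hochberg adjustment over all genes of the table, and a differentially expressed gene (DEG) also has a fold change above 2. At 198 mg/kg-d, 0 of 10 genes were called, where 1.56% of all genes were, and 1 of the 10 (Cpt2) had an unadjusted p under 0.05. At 313 mg/kg-d, 9 of 10 were called higher, against 20.5% of all genes, and at 427 mg/kg-d again 9 of 10, against 22.7%. DEGs numbered 5 of 10 at 313 mg/kg-d (2.31% of all genes, either direction) and 7 of 10 at 427 mg/kg-d (3.5%). With libraries rescaled by their median ratio the counts among the 10 genes were 2 and 6. The all-gene shares of DEGs given here are those of the main scaling and are no measure for these 2 counts. For the same 9 genes, all 6 treated mice lay above all 6 controls at 313 mg/kg-d (9.14% of all genes) and at 427 mg/kg-d (11.4%). The 3 doses share their controls, so these counts are not independent of each other.

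The median difference over the 10 genes was 0.14 at 198, 1.03 at 313 and 1.25 at 427 mg/kg-d on the log2 scale, while the medians over all genes were 0.07, 0.11 and 0.10. The all-gene shift is tied to the scaling: with median-ratio scaling it was -0.01 at 427 mg/kg-d, and the calls over all genes went from 2565 higher of 3391 to 1423 higher of 2847. Under that scaling the same number of members, 9, was called higher at 427 mg/kg-d, against 12.6% of all genes, and the median of the 10 was 1.10. Increases below are therefore to be read against a general shift of about 0.10.

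Between 198 and 313 mg/kg-d 9 of 10 genes were called higher (8.05% of all genes), by 0.41 (Acadvl) to 1.33 (Eci1) on the log2 scale. From 313 to 427 mg/kg-d only Decr1 was called (1.73% of all genes called higher), with a difference of 0.45 (SE 0.11, limma FDR = 0.0265). That call was lost, with FDR of 0.0557 to 0.0779, when mouse 74 or 78 at 313 or mouse 97 or 99 at 427 mg/kg-d was left out, and when the fit held only those 2 groups (FDR = 0.0813). A linear dose trend was called in 9 of 10 genes (24.4% of all genes called higher), with slopes of 0.16 (Acadvl) to 0.40 (Eci1) log2 units per 100 mg/kg-d.

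**Figure D1:**
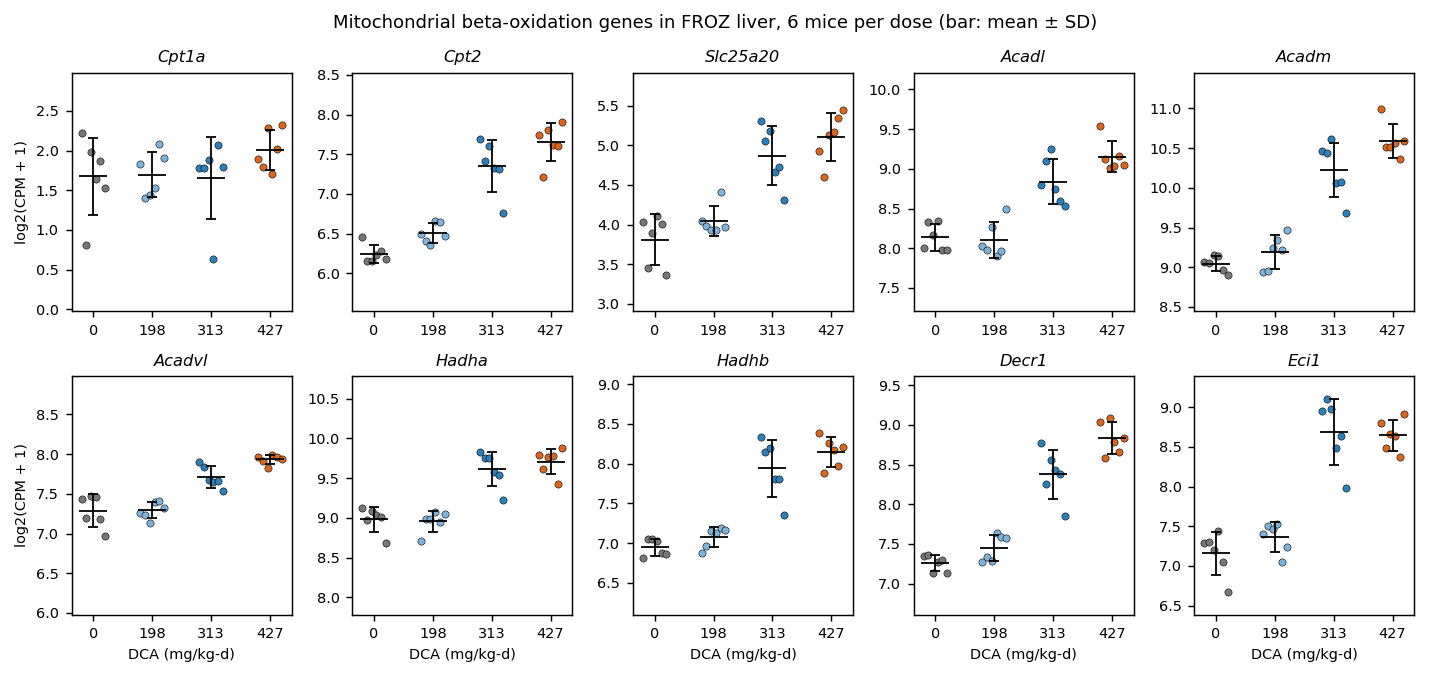
Level of each of the 10 genes in FROZ liver as log2(CPM + 1) against the DCA dose in mg/kg-d, with 1 point per mouse (6 per dose) and the mean ± SD as black bars. Each panel has its own vertical range. In all panels but that of Cpt1a the points at 313 and 427 mg/kg-d lie above those of the controls.

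Cpt1a, the liver form of carnitine palmitoyltransferase 1 on the outer mitochondrial membrane, forms acylcarnitines and is the controlled entry step of the pathway, inhibited by malonyl-CoA. The gene spans chr19:3322334-3385733 on the plus strand (GENCODE on GRCm38, mm10), with 19 exons in its principal transcript. In FROZ its lowest, median and highest log2(CPM + 1) were 0.81, 1.75 and 2.22 in controls and 1.40, 1.68 and 2.08 at 198 mg/kg-d. They were 0.63, 1.79 and 2.07 at 313 mg/kg-d, and 1.71, 1.96 and 2.32 at the top dose. The 4 groups overlapped throughout, and only 2 of the 6 mice at 427 mg/kg-d lay above every control.

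The difference of Cpt1a at 427 mg/kg-d was 0.33 (SE 0.22, 95% interval -0.12 to 0.78, limma FDR = 0.271). The FROZ libraries held 4 to 36 reads of Cpt1a, and the control mean was 2.33 CPM. On the log2(CPM + 1) scale a 2-fold rise from that mean would be 0.77, inside the interval. With an offset of 0.1 in place of 1 the difference was 0.48, again not called (FDR = 0.297). A 2-fold rise is thus not excluded by these libraries.

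FFPE values of Cpt1a were split between libraries with and without reads. Their lowest, median and highest were 0.00, 3.29 and 3.87 in controls, 0.63, 3.67 and 5.84 at 198 mg/kg-d, 0.00, 0.00 and 3.89 at 313 mg/kg-d, and 2.37, 3.44 and 4.73 at 427 mg/kg-d. Reads were at 0 in 1 control and in 4 of 6 mice at 313 mg/kg-d, while no mouse at 427 mg/kg-d was at 0. A count of 0 allows up to 3 reads, or at most 0.971 CPM in those 4 libraries (counting error only). They were of mice 73, 75, 77 and 78, with 1452, 908, 858 and 169 genes without a read. Mice 74 and 76 had 384 and 415. Control mouse 3, at 0 for Cpt1a, had 795, the most of the controls. Libraries at 427 mg/kg-d had 67 to 256. Mouse 52 at 198 mg/kg-d had 1163 but held 158 reads of Cpt1a. The part of such dropout in the Cpt1a differences between doses was not tested. No dose passed the test in FFPE, with differences of 0.54, -1.76 and 0.71 and limma FDR of 0.843, 0.45 and 1.00 at 198, 313 and 427 mg/kg-d.

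The region before the RefSeq start of Cpt1a is shown because Cpt1a is the one gene of the set not called in FROZ. The hexamer AGGTCA, the half-site of the elements that nuclear receptors such as PPAR alpha bind, was searched on both strands, and its match is in capitals at position -94 from the transcript start. The window lies inside the GENCODE gene, which starts further upstream, and its last 16 bases, which are exonic, are left out (RefSeq, GRCm38.p6, chr19:3323051-3323284, plus strand).
Cpt1a: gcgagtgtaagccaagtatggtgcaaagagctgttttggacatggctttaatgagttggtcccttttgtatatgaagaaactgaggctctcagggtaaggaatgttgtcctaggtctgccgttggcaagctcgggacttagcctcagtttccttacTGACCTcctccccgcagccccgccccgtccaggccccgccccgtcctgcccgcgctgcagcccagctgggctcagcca

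Windows of 250 bases before to 50 after the RefSeq start were found for 9 of the 10 genes, Decr1 being the exception. The half-site was in 3 of the 9 (Cpt1a, Acadm, Acadvl) and in 16.3% of 32851 promoters. The direct repeat AGGTCANAGGTCA, the classic PPAR element, was in none of the 9 as an exact match (0.0396% of promoters). With up to 2 mismatches it was in 1 of the 9 (Slc25a20), against 3.86%. The GC box GGGCGG was in 7 of the 9, against 35.7%, and CCAAT in 1 of the 9 (Cpt1a), against 37.4%. These are matches of letters in a short window, not binding sites, and GC box matches of Hadha and Hadhb share the interval between the genes.

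Slc25a20, the carnitine-acylcarnitine translocase of the inner membrane, exchanges acylcarnitine for carnitine and is the only carrier of the shuttle. It lies at chr9:108662088-108684641 on the plus strand, with 9 exons. Its FROZ lowest, median and highest were 3.36, 3.95 and 4.11 in controls, 3.93, 3.98 and 4.42 at 198 mg/kg-d, 4.30, 4.89 and 5.31 at 313 mg/kg-d, and 4.60, 5.15 and 5.45 at 427 mg/kg-d. All mice of both upper doses lay above all controls. The difference was 1.06 at 313 mg/kg-d (SE 0.16, limma FDR = 2.64e-05) and 1.29 at 427 mg/kg-d (SE 0.16, FDR = 8.48e-07), a 2.45-fold rise.

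In FFPE liver Slc25a20 ranged from 2.62 to 4.05 (median 3.30) in controls and from 3.58 to 5.09 (median 4.43) at 313 mg/kg-d. It ranged at 427 mg/kg-d from 0.00 to 5.66 (median 4.61), and the library of mouse 101 held no read of it. The library of mouse 49 at 198 mg/kg-d was also at 0, in a group that otherwise reached 5.22. Neither 313 nor 427 mg/kg-d was called (differences 1.05 and 0.49, limma FDR of 0.703 and 1.00), although 4 of 6 mice at each of these doses lay above all controls. At 198 mg/kg-d mice 50, 52, 53 and 54 (4.40, 4.06, 4.95 and 5.22) lay above all controls as well, so this count does not set the upper doses apart. The 13 bases that hold the repeat with 2 mismatches start 6 bases after the RefSeq transcript start (RefSeq, GRCm38.p6, chr9:108662142-108662154, plus strand) and are printed to show how far they depart from the element.
Slc25a20: aggtgaaaggtcg

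Cpt2, carnitine palmitoyltransferase 2 on the inner face of the inner membrane, returns the acyl group to CoA and completes the shuttle. The gene is at chr4:107903981-107923610 on the minus strand and has 5 exons. Its FROZ lowest, median and highest were 6.16, 6.21 and 6.46 in controls, 6.36, 6.48 and 6.66 at 198 mg/kg-d, 6.76, 7.37 and 7.70 at 313 mg/kg-d, and 7.22, 7.68 and 7.91 at 427 mg/kg-d. Controls and the lowest dose overlapped in part (4 of 6 mice above all controls), and the upper doses did not overlap the controls. Cpt2 rose by 1.11 at 313 mg/kg-d (SE 0.12, limma FDR = 1.86e-07) and by 1.41 at 427 mg/kg-d (SE 0.12, FDR = 1.17e-09), or 2.65-fold. At 198 mg/kg-d its difference of 0.26 (SE 0.12) was not called (FDR = 0.262).

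FFPE values of Cpt2 ran from 4.40 to 6.36 (median 5.19) in controls, from 5.54 to 7.13 (median 6.38) at 313 mg/kg-d and from 6.14 to 6.73 (median 6.35) at 427 mg/kg-d. The groups overlapped, with 3 of 6 mice above all controls at either dose. The differences of 1.11 and 1.20 (SE 0.37 each) missed the threshold (limma FDR of 0.188 and 0.101), and without control mouse 3 the second was called (FDR = 0.0328). Its dose trend was called (0.31 per 100 mg/kg-d, FDR = 0.0414), but with 1 library left out it was called in only 7 of 24 fits, with FDR of 0.0502 to 0.123 in the other 17.

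Acadvl, the very-long-chain acyl-CoA dehydrogenase bound to the inner membrane, starts the cycle for the longest chains. It lies at chr11:70010183-70015411 on the minus strand, with 20 exons. In FROZ its lowest, median and highest were 6.96, 7.32 and 7.47 in controls, 7.14, 7.30 and 7.40 at 198 mg/kg-d, 7.53, 7.67 and 7.91 at 313 mg/kg-d, and 7.83, 7.95 and 7.99 at 427 mg/kg-d. The 6 mice at 427 mg/kg-d were the tightest group of the whole set, with an SD of 0.06. Acadvl had the smallest rise of the 9 called genes, 0.42 at 313 mg/kg-d (SE 0.08, limma FDR = 0.000427) and 0.65 at 427 mg/kg-d (SE 0.08, FDR = 1.06e-06), or 1.57-fold. In FFPE it overlapped between groups, from 5.76 to 7.63 in controls and from 6.84 to 7.66 at 427 mg/kg-d, with a difference of 0.69 (SE 0.52, FDR = 0.92).

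Acadl, the long-chain acyl-CoA dehydrogenase of the matrix, is at chr1:66830839-66863277 on the minus strand, with 11 exons. Its FROZ lowest, median and highest were 7.98, 8.09 and 8.35 in controls, 7.90, 8.00 and 8.50 at 198 mg/kg-d, 8.53, 8.77 and 9.25 at 313 mg/kg-d, and 9.02, 9.09 and 9.54 at 427 mg/kg-d. At the lowest dose 1 mouse lay above and 2 below the range of the controls, and both upper doses lay wholly above the controls. Acadl rose by 0.70 at 313 mg/kg-d (SE 0.12, limma FDR = 0.000108) and by 1.02 at 427 mg/kg-d (SE 0.12, FDR = 3.67e-07), a fold of 2.03 that just exceeds the DEG threshold. In FFPE the groups overlapped, from 4.05 to 6.49 in controls and from 4.62 to 6.48 at 427 mg/kg-d, and the difference of 0.42 (SE 0.50) was not called (FDR = 1.00).

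Acadm, the medium-chain acyl-CoA dehydrogenase, takes over once chains have been shortened and is the enzyme missing in the commonest inherited defect of this pathway. It is at chr3:153922357-153944632 on the minus strand, with 12 exons. Its FROZ lowest, median and highest were 8.90, 9.06 and 9.15 in controls, 8.94, 9.23 and 9.47 at 198 mg/kg-d, 9.69, 10.26 and 10.61 at 313 mg/kg-d, and 10.36, 10.54 and 10.99 at 427 mg/kg-d. In CPM the group medians were 533 in controls and 1485 at 427 mg/kg-d, and neither upper dose overlapped the controls. Acadm rose by 1.18 at 313 mg/kg-d (SE 0.13, limma FDR = 1.77e-07) and by 1.54 at 427 mg/kg-d (SE 0.13, FDR = 6.1e-10), or 2.91-fold.

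Acadm had the smallest SE of the 10 genes in FFPE. There it ran from 7.48 to 8.68 (median 8.20) in controls, from 8.07 to 8.56 (median 8.29) at 198 mg/kg-d, from 8.66 to 9.99 (median 9.37) at 313 mg/kg-d and from 9.51 to 9.89 (median 9.66) at 427 mg/kg-d. All 6 mice at 427 mg/kg-d and 5 of 6 at 313 mg/kg-d lay above all controls. The FFPE differences of 1.16 (SE 0.21, limma FDR = 0.000953) and 1.51 (SE 0.21, FDR = 7.11e-06) were both called. The upstream bases are printed as those of a called gene with the half-site, at position -249 and in capitals (RefSeq, GRCm38.p6, chr3:153944644-153944893, minus strand).
Acadm: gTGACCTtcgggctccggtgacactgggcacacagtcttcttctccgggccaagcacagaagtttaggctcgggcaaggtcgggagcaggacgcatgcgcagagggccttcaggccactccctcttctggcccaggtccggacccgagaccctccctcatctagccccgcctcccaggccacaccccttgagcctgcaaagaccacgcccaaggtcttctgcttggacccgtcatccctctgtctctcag

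Hadha and Hadhb encode the alpha and beta subunits of the mitochondrial trifunctional protein, which carries the hydratase and hydroxyacyl-CoA dehydrogenase activities on alpha and the thiolase on beta. The genes lie head to head on chromosome 5, Hadha at chr5:30118304-30155162 on the minus strand with 20 exons and Hadhb at chr5:30155248-30184593 on the plus strand with 16 exons. The 85 bases between the GENCODE genes are printed because, by that annotation, both subunits are read outward from this one interval. The RefSeq starts used for the promoter windows are 30154980 for Hadha and 30155253 for Hadhb, with 272 bases between them. That of Hadha thus lies outside the printed bases, within its GENCODE gene. The printed bases contain 2 GC boxes, in capitals (RefSeq, GRCm38.p6, chr5:30155163-30155247, plus strand).
Hadha-Hadhb interval: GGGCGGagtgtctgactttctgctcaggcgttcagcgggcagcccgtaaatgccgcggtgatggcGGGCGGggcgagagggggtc

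Hadha in FROZ had a lowest, median and highest of 8.68, 9.02 and 9.12 in controls, 8.71, 8.98 and 9.07 at 198 mg/kg-d, 9.23, 9.67 and 9.83 at 313 mg/kg-d, and 9.43, 9.77 and 9.88 at 427 mg/kg-d. For Hadhb these values were 6.81, 6.95 and 7.06 in controls, 6.87, 7.14 and 7.19 at 198 mg/kg-d, 7.35, 7.98 and 8.34 at 313 mg/kg-d, and 7.88, 8.19 and 8.39 at 427 mg/kg-d. Neither gene's upper doses overlapped its controls. Hadha rose by 0.63 and 0.72 (SE 0.10 each, limma FDR of 2.99e-05 and 2.47e-06), or 1.55-fold and 1.65-fold. Hadhb rose by 0.99 and 1.20 (SE 0.12 each, FDR of 8.38e-07 and 1.83e-08), or 1.99-fold and 2.3-fold.

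The log2 ratio of Hadhb to Hadha within a library was compared after these values had been seen. In FROZ it was -2.04 ± 0.17 (SD, n = 6) in controls and -1.56 ± 0.13 (SD, n = 6) at 427 mg/kg-d. All 6 mice at that dose lay above all controls, and the difference of 0.47 had an exact two-sided permutation p of 0.00216, the smallest that 6 against 6 allows (0.0130 adjusted over 6 such tests). At 313 mg/kg-d the ratio was -1.67 ± 0.15 (SD, n = 6), a difference of 0.36 (exact permutation p = 0.00433, adjusted 0.0130), with overlap. At 198 mg/kg-d it differed by 0.15 (exact permutation p = 0.0779, adjusted 0.156). FFPE did not show the FROZ difference beyond its spread: at 427 mg/kg-d the ratio was -1.24 ± 0.74 (SD, n = 6) against -0.84 ± 1.08 (SD, n = 6) in controls (exact permutation p = 0.472). The Hadhb probe was attenuated in the assay, which the paper describes as done equally in all samples. The part of this attenuation in the FROZ ratio was not tested. Since the pair was picked after its values were seen, the p-values do not allow for that choice, and the adjustment covers only its own 6 tests. Rises of the 9 called genes at 427 mg/kg-d ran from 0.65 (Acadvl) to 1.57 (Decr1). Other pairs were not compared, so a difference of this size is not shown to be particular to Hadha and Hadhb.

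Hadha in FFPE ran from 3.99 to 6.46 (median 6.03) in controls and from 6.95 to 7.85 (median 7.51) at 427 mg/kg-d, with no overlap. Its difference of 1.80 (SE 0.56) was the largest of the 10 genes in FFPE at that dose, yet it was not called (limma FDR = 0.0937). Without the library of mouse 53, the lowest at 198 mg/kg-d, the difference was called (FDR = 0.00675). Hadhb in FFPE ran from 3.31 to 6.05 (median 5.00) in controls and from 5.72 to 6.90 (median 6.05) at 427 mg/kg-d, with overlap, and its difference of 1.41 (SE 0.64) was not called (FDR = 0.493).

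Decr1, the mitochondrial 2,4-dienoyl-CoA reductase, removes double bonds that the standard cycle cannot handle. It is at chr4:15917240-15945507 on the minus strand, with 10 exons. Its FROZ lowest, median and highest were 7.13, 7.28 and 7.36 in controls, 7.27, 7.45 and 7.63 at 198 mg/kg-d, 7.86, 8.41 and 8.78 at 313 mg/kg-d, and 8.58, 8.81 and 9.09 at 427 mg/kg-d. The 2 upper doses stood clear of the controls. Decr1 rose by 1.12 at 313 mg/kg-d (SE 0.11, limma FDR = 7.68e-08) and by 1.57 at 427 mg/kg-d (SE 0.11, FDR = 6.91e-11), or 2.98-fold, the largest rise of the 10 genes at the top dose.

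In FFPE liver Decr1 ran from 6.00 to 7.70 (median 6.73) in controls, from 7.42 to 8.95 (median 8.16) at 313 mg/kg-d and from 8.02 to 9.03 (median 8.49) at 427 mg/kg-d. All 6 mice at the top dose and 4 of 6 at 313 mg/kg-d were above every control. Both differences were called, 1.39 (SE 0.31, limma FDR = 0.0146) and 1.71 (SE 0.31, FDR = 0.000683). The call at 313 mg/kg-d was lost without control mouse 8 or mouse 73 or 76 of that dose, with FDR of 0.0526 to 0.0557.

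Eci1, the mitochondrial enoyl-CoA delta isomerase, shifts double bonds into the position that the hydratase accepts. The gene is at chr17:24426641-24439348 on the plus strand, with 7 exons. In FROZ its lowest, median and highest were 6.67, 7.24 and 7.44 in controls, 7.05, 7.43 and 7.53 at 198 mg/kg-d, 7.98, 8.79 and 9.11 at 313 mg/kg-d, and 8.37, 8.65 and 8.92 at 427 mg/kg-d. Both upper doses lay above all controls and overlapped each other. Eci1 had the largest rise of the set at 313 mg/kg-d, 1.53 (SE 0.15, limma FDR = 3.78e-08), and rose by 1.49 at 427 mg/kg-d (SE 0.15, FDR = 2.01e-08), or 2.8-fold. The step between these doses was -0.05 (95% interval -0.35 to 0.26).

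Eci1 in FFPE moved less evenly over the doses. Its lowest, median and highest were 6.63, 6.90 and 7.37 in controls, 4.60, 5.80 and 7.41 at 198 mg/kg-d, 6.91, 7.95 and 8.65 at 313 mg/kg-d, and 8.02, 8.16 and 8.55 at 427 mg/kg-d. At the lowest dose 4 of 6 mice lay below all controls, with an SD of 0.98 in the group. The difference of -0.97 (SE 0.34) was not called (limma FDR = 0.287), while the FROZ difference at that dose was 0.21. The 4 low mice were 49, 52, 53 and 54, whose FFPE libraries had 970 to 1595 genes without a read. Those of mice 50 and 51 had 194 and 159. Mouse 73 at 313 mg/kg-d had 1452, yet its Eci1 value was 8.59. The part of such dropout in the Eci1 values was not tested. At 427 mg/kg-d all 6 mice were above all controls and the difference of 1.29 (SE 0.34) was called (FDR = 0.0312). That call was lost, with FDR of 0.0522 to 0.0922, when any 1 of 10 libraries was left out (control mice 4, 5, 7 and 8, and each of mice 97 to 102 at 427 mg/kg-d).

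FFPE liver of the same mice held fewer calls for these genes, all of them in the same direction as in FROZ. At 198 mg/kg-d, 0 of 10 were called (0.0599% of all genes), and 1 (Eci1, lower) had an unadjusted p under 0.05. At 313 mg/kg-d 2 of 10 were called higher (Acadm and Decr1, against 0.764% of all genes), and at 427 mg/kg-d 3 of 10 (Acadm, Decr1 and Eci1, against 1.54%). All 3 were DEGs (1.81% of all genes, either direction). No gene of the 10 had all 6 mice above all controls at 313 mg/kg-d (0.959% of all genes), and 4 had at 427 mg/kg-d (Acadm, Hadha, Decr1 and Eci1, against 2.94%). The dose trend was called in 3 of 10 (Cpt2, Acadm and Decr1, against 1.51%). From 198 to 313 mg/kg-d 2 of 10 were called higher (Acadm and Eci1, against 0.809%). Both calls were lost in a fit of those 2 groups only (limma FDR of 0.102 and 0.0622) and with array quality weights (0.109 and 0.168), where the Eci1 step fell from 1.95 to 1.17. From 313 to 427 mg/kg-d 0 of 10 were called (0.375%), and 1 (Cpt1a) had an unadjusted p under 0.05.

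The FFPE medians over the 10 genes were 0.21, 1.08 and 1.24 at 198, 313 and 427 mg/kg-d, beside 0.14, 1.03 and 1.25 in FROZ, and the all-gene medians in FFPE were -0.19, -0.12 and 0.18 (0.07 at 427 mg/kg-d with median-ratio scaling, where the 10 genes had 1.14). The spread differed more than the size. The SD within a dose group ran from 0.06 to 0.51 (median 0.20) over the 40 FROZ groups of gene and dose, and from 0.15 to 2.03 (median 0.68) over the 40 FFPE groups.

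**Figure D2:**
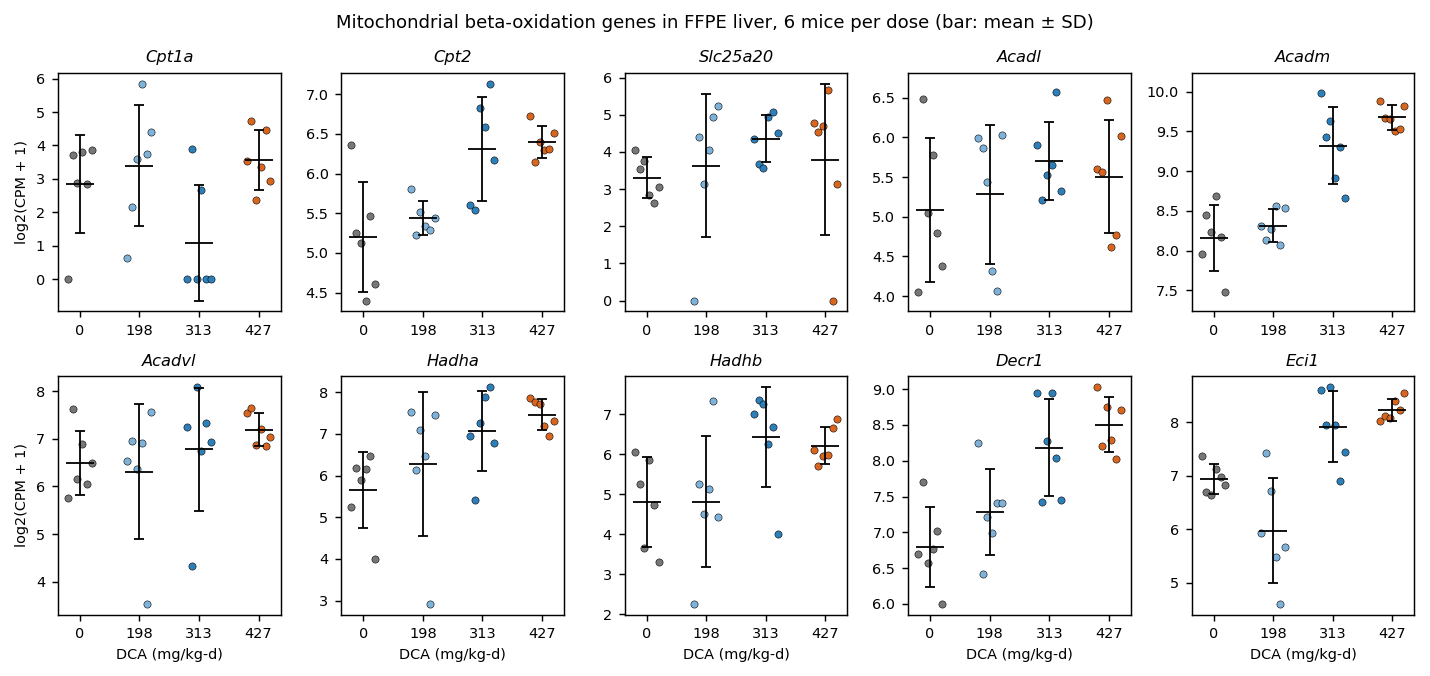
Level of each of the 10 genes in FFPE liver as log2(CPM + 1) against the DCA dose in mg/kg-d, with 1 point per mouse (6 per dose) and the mean ± SD as black bars. Each panel has its own vertical range, and points at 0 for Cpt1a and Slc25a20 are libraries without a read of that gene.

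The response in FFPE was compared with that in FROZ directly, by subtracting, within each mouse, the FROZ from the FFPE value. None of the 10 genes was called at 198, 313 or 427 mg/kg-d, where 0.0303, 0 and 0.0303% of 6591 shared genes were (limma, Benjamini-Hochberg). At an unadjusted p under 0.05 there was 1 gene at 198 mg/kg-d, Eci1, with a difference of -1.18 (SE 0.35, FDR = 0.302). At each of the upper doses there were 0. The 4 mice with low Eci1 in FFPE at 198 mg/kg-d had libraries with 970 to 1595 genes without a read. The precision of this comparison differed widely between genes. For Acadm at 427 mg/kg-d the FFPE response differed from the FROZ response by -0.03 (95% interval -0.50 to 0.45), for Decr1 by 0.13 (-0.53 to 0.79) and for Cpt2 by -0.21 (-0.91 to 0.49). For Hadha it was 1.08 (-0.25 to 2.41), for Slc25a20 -0.80 (-2.59 to 0.98) and for Cpt1a 0.38 (-1.61 to 2.36), intervals that hold differences larger than the FROZ response itself.

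**Figure D3:**
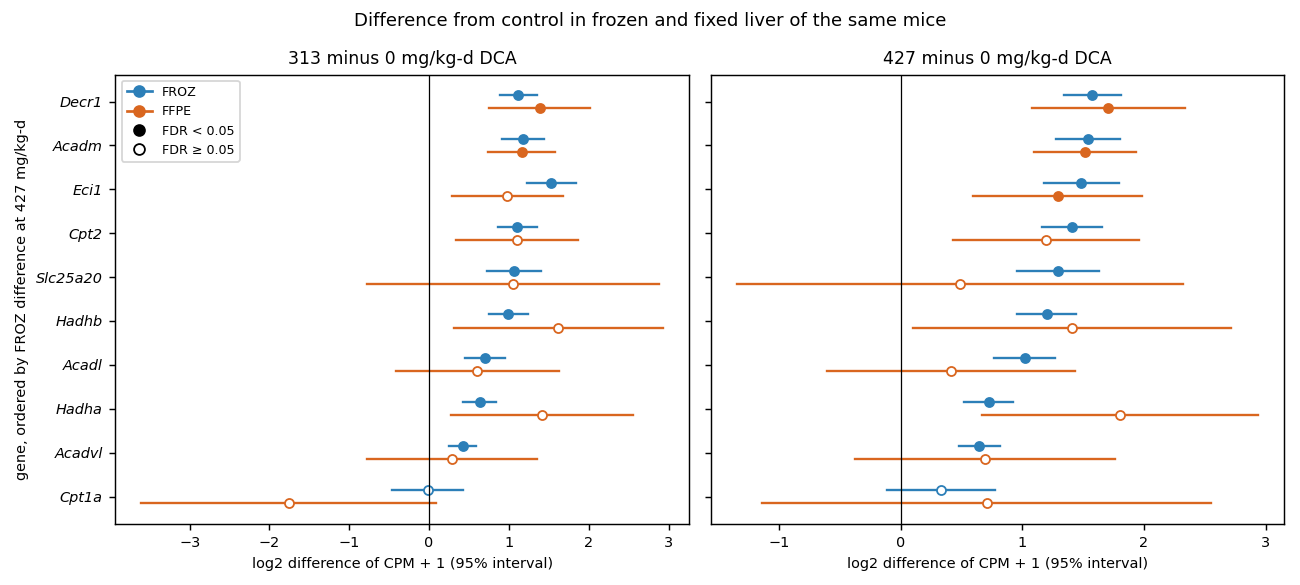
Difference from the controls in log2(CPM + 1) (horizontal axis, with its 95% interval) for each gene at 313 and 427 mg/kg-d, in FROZ (blue) and FFPE (orange), with filled points at FDR under 0.05. FROZ intervals exclude 0 for all genes but Cpt1a, and FFPE intervals are wider, reaching from -1.14 to 2.55 for Cpt1a at 427 mg/kg-d.

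Within a dose group some mice were low for most of the genes. In FROZ, mouse 78 was the lowest of its 6 at 313 mg/kg-d in 9 of the 10 genes (all but Cpt1a), with a mean deviation of -0.49 log2 units from the group mean over these 9. Its FROZ library, at 7.68 M reads, was within the range of the others. In the FFPE library of this mouse 7 of the 9 genes were below their group mean, by -0.53 on average. Control mouse 8 was below its group mean in 9 of 9 genes in FROZ (mean deviation -0.24) and in 8 of 9 in FFPE (-0.70). Mouse 98 at 427 mg/kg-d was below in 9 of 9 in FROZ (-0.20) but in 5 of 9 in FFPE (0.04). These mice were picked out after their values were seen. Without any 1 of the 24 FROZ libraries the number of genes called stayed at 9 at 313 and at 427 mg/kg-d.

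Other genes of mitochondrial beta-oxidation or linked to it rose with the 10 in FROZ. Of 14 such genes 12 were listed. At 427 mg/kg-d 11 of these were called higher (22.7% of all genes) and none lower, with a median difference of 0.65. Only 2 were DEGs, Acot2 and Dbi, and neither encodes an enzyme of the cycle itself. Acot2, a mitochondrial acyl-CoA thioesterase, went from 0.67 ± 0.39 to 5.64 ± 0.55 (SD, n = 6), a difference of 4.96 (SE 0.40, limma FDR = 4.65e-10), although reads of its near-identical copy Acot1 may be split with it. Dbi, which binds acyl-CoA in the cytosol, rose by 1.13 (SE 0.08, FDR = 1.09e-10). Cpt1b, the muscle form of carnitine palmitoyltransferase 1, is given after its values were seen: its FROZ mean was 0.88 ± 1.64 in controls and 2.41 ± 0.99 (SD, n = 6) at 427 mg/kg-d, not called (FDR = 0.0624) but called without control mouse 5 (FDR of 0.00123) or mouse 98 (0.0429). In FFPE Cpt1b was called, at 0.96 ± 0.85 against 5.19 ± 1.05 (SD, n = 6), a difference of 4.24 (SE 0.93, FDR = 0.0065).

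Among genes of carnitine supply and malonyl-CoA control 7 of 9 listed were called higher at 427 mg/kg-d (22.7% of all genes) and none lower, with a median of 0.58. Crat, carnitine acetyltransferase, rose by 2.63 (SE 0.24, limma FDR = 3.53e-09) and Slc22a5, the plasma membrane carnitine transporter, by 2.17 (SE 0.22, FDR = 3.13e-08). Acaca, an enzyme that makes malonyl-CoA, rose by 1.04 (SE 0.13, FDR = 5.16e-07). Of 20 regulators of fatty acid oxidation 11 were called higher, against the same 22.7%, and none lower (median 0.39). The DEGs among them, Angptl4 (1.26, SE 0.21, FDR = 3.84e-05) and Fgf21 (1.13, SE 0.18, FDR = 1.62e-05), encode secreted proteins, not factors that bind DNA. Angptl4 differed by -0.74 at 198 and by 0.13 at 313 mg/kg-d, the latter not called (limma FDR = 0.697). Fgf21 differed by -0.004 and 0.50, the latter called (limma FDR = 0.037).

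Peroxisomal beta-oxidation, which begins the breakdown of very long chains outside the mitochondrion, held rises larger than any of the 10 genes. Of 19 listed genes 12 were called higher (22.7% of all genes) and 1, Acox3, lower, with a median of 1.26 near that of the 10 mitochondrial genes. Ehhadh, the peroxisomal bifunctional enzyme, rose by 4.75 (SE 0.31, limma FDR = 1.24e-11). The thiolases Acaa1b and Acaa1a rose by 2.97 and 2.63, with reads possibly split between these near-identical copies. Other DEGs included Eci2 (1.90) and Decr2 (1.26), peroxisomal counterparts of Eci1 and Decr1, Abcd2 (1.87), Abcd3 (1.71), Ech1 (1.35) and Pex11a (1.90). In the tricarboxylic acid cycle, which takes up the acetyl-CoA, 11 of 16 listed genes were called higher (again against 22.7%) and none lower, but none was a DEG (median 0.42), and the largest rises were those of Dlst (0.95, SE 0.10) and Sdhd (0.76, SE 0.09).

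**Figure D4:**
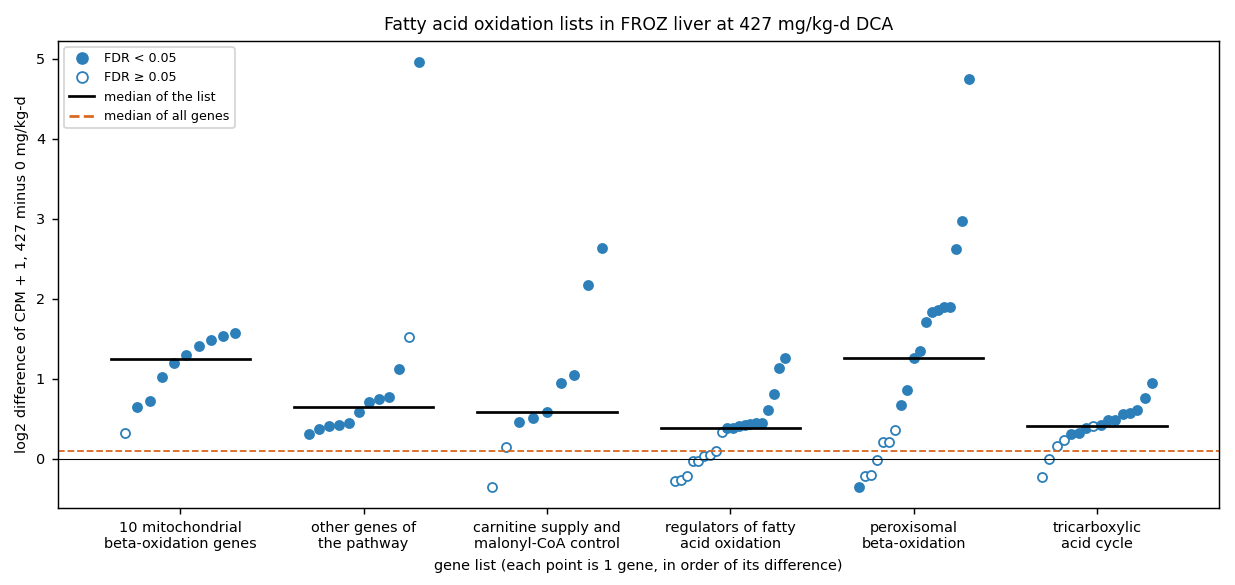
Difference in log2(CPM + 1) between 427 and 0 mg/kg-d in FROZ liver for each listed gene of 6 lists, with filled points at FDR under 0.05, a black line at each list's median and a dashed line at the median of all genes (0.10). The medians run from 0.39 for the regulators to 1.26 for peroxisomal beta-oxidation, and that of the 10 mitochondrial genes is 1.25.

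In FFPE the same lists held fewer calls at 427 mg/kg-d. Called higher were 3 of 11 further mitochondrial genes, 1 of 7 of the carnitine and malonyl-CoA list, 0 of 13 regulators, 6 of 17 peroxisomal genes and 2 of 16 of the tricarboxylic acid cycle, against 1.54% of all genes, and none was called lower. Their medians were 0.62, 0.98, 0.02, 1.45 and 0.64, beside 0.18 over all genes.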

How the data were processed

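TempO-Seq values of 24 FROZ and 24 FFPE mouse liver libraries were used. The deposited values are log2(CPM + 1): the authors aligned reads to mm10 with STAR 2.6 in Partek, counted them on RefSeq transcripts, removed genes of low expression, scaled each table separately to CPM and took log2 with an offset of 1. Columns outside the sample records numbered 0.

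Groups followed dose and preservation in the sample records. Differences were tested by limma 3.58.1 (R 4.3.3) with its trended prior on the variance, over all genes and the 24 libraries of a table (two-sided, Benjamini-Hochberg FDR under 0.05), and tested on simulated data first. FFPE and FROZ responses were compared within mice, which are the block. Over 4815 genes, deviations from dose means of a mouse's 2 libraries correlated at a median r of 0.128, against -0.0232 between mice, and best with their own mouse in 21 of 24. Reads were recovered from the step of low CPM values. Per library, 96.5 to 97.5% of low values in FROZ lay within 0.1 reads of a whole number. In FFPE 85.7 to 95.8% did.

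The 10 genes and all lists were chosen with earlier results of these data known. From the other lists, all FROZ DEGs at 427 mg/kg-d and the 2 largest called differences of each list were named, except 1 gene that is not reported here. Gene positions are GENCODE vM21, promoters RefSeq GRCm38.p6. Alternatives were offsets, scaling, a filter at a mean of 10 CPM, priors, array weights, fits of 2 groups and leaving out each library. Intervals and read floors cover counting error or replicate spread only, since reads have no molecular identifiers.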

Additional observations from a re-analysis of the deposited data

Results flagged for a closer look

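Each of the 80 groups of gene, preservation and dose was checked for a sample far from the other 5 by the gap of the lowest or highest mouse over the range of the group, and 11 groups passed Dixon's 95% limit for 6 samples, which chance exceeds in about 1 of 20 groups. In FROZ the flagged log2(CPM + 1) values were those of Cpt1a at 313 mg/kg-d in mouse 76 (0.63, others 1.78 to 2.07), Slc25a20 at 198 mg/kg-d in mouse 53 (4.42, others 3.93 to 4.05), and Hadha in control mouse 8 (8.68, others 8.97 to 9.12) and in mouse 49 at 198 mg/kg-d (8.71, others 8.95 to 9.07). At 427 mg/kg-d mouse 97 was flagged as the highest for both Acadl (9.54, others 9.02 to 9.17) and Acadm (10.99, others 10.36 to 10.60).

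In FFPE all 5 flagged values were low ones. Cpt1a was at 0.00 in control mouse 3 (others 2.85 to 3.87). Acadvl was at 3.54 in mouse 53 at 198 mg/kg-d (others 6.36 to 7.55) and at 4.32 in mouse 74 at 313 mg/kg-d (others 6.75 to 8.08). Hadha was at 2.92 in mouse 53 at 198 mg/kg-d (others 6.14 to 7.53), and Hadhb at 4.02 in mouse 78 at 313 mg/kg-d (others 6.25 to 7.35). The FFPE library of mouse 53 held 3.94 M reads, within the 1.83 to 5.59 M of its dose group. It had 970 genes without a read, against 159 to 1595 in that group and 137 to 795 in FFPE controls.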

How the results depend on the processing

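In FROZ the number of genes called was 0 at 198 and 9 each at 313 and 427 mg/kg-d, for the trend and for the step from 198 to 313 mg/kg-d, under every alternative and with each library left out. The step from 313 to 427 mg/kg-d held 1 call, 0 with 2 groups only, and 0 to 1 with a library left out. With median-ratio scaling DEGs among the 10 genes at 313 mg/kg-d fell from 5 to 2, and the all-gene share of DEGs under that scaling is not given. In FFPE the 2 calls at 313 mg/kg-d were 1 with a prior without trend and 1 to 2 with a library left out. The 3 at 427 mg/kg-d became 6 with array quality weights, 5 with 2 groups only and 2 to 4 with a library left out. The 3 trend calls became 2 with median-ratio scaling, which lost Cpt2 (FDR = 0.0650), 5 with an offset of 10, 6 with array weights and 2 to 5 with a library left out. The 2 calls from 198 to 313 mg/kg-d were 1 with a prior without trend and 0 with array weights or 2 groups only. Array weights added calls at 427 mg/kg-d for Cpt2 (FDR = 0.000217), Hadha (0.000243) and Hadhb (0.0158), while a prior without trend lost those of Decr1 at 313 (0.0926) and Eci1 at 427 mg/kg-d (0.117). Over all genes, limma calls in either direction moved by over 1.5 times as follows. In FROZ a filter at a mean of 10 CPM raised them at 427 mg/kg-d from 30.1 to 45.4%, at 198 mg/kg-d from 1.56 to 5.09%, from 198 to 313 mg/kg-d from 11.7 to 21.2% and from 313 to 427 mg/kg-d from 3.07 to 5.36%. Those at 198 mg/kg-d were 0.887% with a prior without trend, 0.78% with 2 groups only and 0.452 to 1.91% with a library left out (lowest without mouse 53). With a library left out the steps from 198 to 313 and 313 to 427 mg/kg-d reached 7.41% (mouse 74) and 1.66% (mouse 99). In FFPE a prior without trend gave 0.525% at 313 (main 1.08%), 1.41% at 427 (main 2.41%), 1.29% for the trend (main 2.17%), 0.51% from 198 to 313 (main 1.06%) and 0.0749% from 313 to 427 mg/kg-d (main 0.375%). Array weights gave 7.85% at 427 mg/kg-d, 7.67% for the trend, 0.45% and 0.704% for the steps, and 2 groups only gave 6.4% at 427 and 0.27% from 198 to 313 mg/kg-d. With a library left out FFPE calls reached 1.89% at 313 mg/kg-d (mouse 78), 0.15 to 0.809% from 313 to 427 mg/kg-d (mice 102 and 78) and 0.03 to 0.599% at 198 mg/kg-d (main 0.0599%, highest without mouse 50), where an offset of 10 gave 0.135% and the filter 0.111%. For the FFPE minus FROZ response they stayed at or under 0.182%. The causes were not tested. The FFPE minus FROZ response, blocked by mouse, held 0 calls at each dose, and 0 without the block or pairing. No called gene changed sign. The Hadhb to Hadha ratio, with offsets of 0.1 and 10 chosen after seeing the data, differed in FROZ by 0.48 and 0.43 at 427 mg/kg-d (exact permutation p = 0.00216 for both). The pair itself was also picked after seeing the data, and these p-values do not allow for that. Cpt1a held 4 to 36 reads per FROZ library, and in FFPE Cpt1a and Slc25a20 had libraries at 0 reads. The part of depth in these values was not tested.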
